A study of Drosophila melanogaster with 22 samples.

Results

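The genes described here encode subunits of the mitochondrial respiratory chain and ATP synthase, with a few of their paralogues and 1 assembly factor. They were chosen by name: every probe set with a single annotated gene symbol that starts with ND-, COX, ATPsyn, UQCR or Sdh. The rule gave 81 probe sets of 73 genes, out of 11982 genes with a single symbol in the whole table. Where a gene had several probe sets, the one brightest on average across the 22 arrays was used. By name, 32 of the 73 genes belong to complex I, 7 to complex II, 6 to complex III, 14 to complex IV and 14 to ATP synthase, also called complex V.

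The study used S2 cells, an embryonic Drosophila melanogaster line with haemocyte-like (blood cell) properties. Each well of growing cells received 20 µg of double-stranded RNA (dsRNA), which triggers RNA interference against the matching transcript, and was collected 72 h later. Cdk8 dsRNA was given for 2 arrays, and CycC, Med12 and Med13 dsRNA for 4 arrays each. GFP dsRNA and Luc dsRNA, which target no kinase module gene, were used as controls with 4 arrays each. All groups shared the line, the medium, the dose and the time, and the labels name no further allele or agent. Med12 and Med13 are the products of the genes kto and skd. The 4 targeted proteins form the kinase module of Mediator, the complex that links transcription factors to RNA polymerase II. The labels number the arrays within a group without saying that they came from separate cultures, so each p-value measures the spread between these arrays, which may be technical.

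The respiratory chain passes electrons from NADH (complex I) and succinate (complex II) through ubiquinone to complex III, cytochrome c and complex IV, which reduces oxygen. Complexes I, III and IV pump protons out of the mitochondrial matrix, and ATP synthase uses their return to make ATP. Most subunits are encoded in the nucleus and imported. Several insect subunit genes have a second copy whose expression is known to be concentrated in the male germline.

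Across the series, transcripts of Cdk8, CycC and kto stood at 14.4%, 3.56% and 9.98% of the control level under their own dsRNA. The transcript of skd stood at 80.6% of the control level under Med13 dsRNA, a log2 difference of -0.31 ± 0.05 (SE). Arrays of one group correlated at 0.996 or more, and between 7175 and 7214 probe sets per array reached the floor of 4 on the log2 intensity scale. Of 13 haemocyte markers, 12 reached the floor, and the one that did not was NimC1. None of 8 muscle markers and none of 7 fat body markers did, whereas 3 of 18 testis markers and 1 of 7 neuron markers did. The summed intensity of the haemocyte markers was 82244 to 83535 in Cdk8, 78922 to 81693 in CycC, 67601 to 70498 in Med12 and 72219 to 76897 in Med13 dsRNA arrays, against 78277 to 81594 in GFP and 77103 to 83918 in Luc dsRNA arrays. The Med12 dsRNA arrays lay below all control arrays in this sum, and so did the Med13 dsRNA arrays. Of the 12 tested haemocyte markers 2 rose and 3 fell under Cdk8, 2 rose and 4 fell under CycC, 0 rose and 10 fell under Med12, and 0 rose and 8 fell under Med13 dsRNA. Of all genes tested 8.07%, 10.9%, 15.5% and 11.2% fell in the same order. The part of these marker differences in the values below was not tested.

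Of the 73 genes, 51 reached the floor on at least 2 arrays and were tested together with all other genes, 5961 in all. The tested genes were 26 of complex I, 4 of complex II, 3 of complex III, 7 of complex IV and 11 of ATP synthase. Nearly all of the 22 untested genes were paralogues. Among the 21 genes whose name marks them as a copy (an added L, L1 or L2), 20 were under the floor on every array. These were ND-20L, ND-24L, ND-51L1, ND-51L2 and ND-B14.5AL of complex I, SdhAL, SdhBL and SdhCL of complex II, UQCR-11L and UQCR-14L of complex III, COX4L, COX5BL, COX6AL, COX6AL2, COX6CL, COX7AL and COX7AL2 of complex IV, and ATPsynCF6L, ATPsynGL and ATPsynbetaL of ATP synthase. The highest value of any of these 20 on any array was 3.66 log2 intensity, for COX7AL2. A signal under the floor says only that the transcript was not measurable there.

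The exception was ATPsynepsilonL, which stayed just over the floor. Its log2 level was 4.65 and 4.96 in Cdk8, 4.66, 4.68, 4.71 and 4.66 in CycC, 4.66, 4.67, 4.66 and 4.66 in Med12, and 4.55, 4.66, 4.66 and 4.66 in Med13 dsRNA arrays, against 4.94, 4.67, 4.62 and 4.66 in GFP and 4.67, 4.67, 4.66 and 4.66 in Luc dsRNA arrays. Single Cdk8 and GFP dsRNA arrays stood highest, and the groups overlapped. Of the 52 genes that are not named as copies, 50 were tested. The remaining ones were ND-B8, with at most 2.81 log2 intensity, and UQCR-11, with at most 3.95. The rule found no single-symbol probe set for SdhA, ND-23, ND-24, ND-30 or ND-49, so the members do not cover whole complexes. The complex I gene ND-B12 sat at the floor itself, between 3.98 and 4.02 on all 22 arrays, so its probe set carried no usable contrast. Of the tested members 47 had a mean log2 level of 10 or more, as had 32.9% of all genes tested. These levels rank no transcripts, since each probe set has its own response.

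The first comparison asked which of these genes changed under dsRNA against each kinase module subunit. Few did, and none by as much as 1.19-fold. Cdk8 dsRNA changed 1 of the 51 tested members (0 rose, 1 fell) at an adjusted p under 0.05, against 18.7% of all genes tested (10.6% rose, 8.07% fell). CycC dsRNA changed 3 members (1 rose, 2 fell), against 24.2% of all genes (13.4% rose, 10.9% fell). Med12 dsRNA changed 8 (5 rose, 3 fell), against 41.9% of all genes (26.5% rose, 15.5% fell). Med13 dsRNA changed 3 (2 rose, 1 fell), against 32.2% of all genes (21% rose, 11.2% fell). As shares of the members these counts are 1.96%, 5.88%, 15.7% and 5.88%. With each array centred on its median the members split into 0 rises and 2 falls, 1 and 2, 2 and 3, and 1 and 1 in the same order, and after quantile normalization into 0 and 2, 2 and 2, 7 and 2, and 6 and 1. In bulk RNA, fewer cells of a type and less RNA per cell cannot be told apart.

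The members' differences were also small in size. The median size of the log2 difference among the 51 members was 0.0385, 0.0288, 0.0288 and 0.0329 for Cdk8, CycC, Med12 and Med13 dsRNA, against 0.0850, 0.0731, 0.107 and 0.0854 among all genes tested. No member differed by 0.25 or more on the log2 scale (1.19-fold) in any of the 4 knockdowns, whereas 27.2% of all genes tested did. The 95% confidence interval of the difference lay wholly within 0.25 either way for 47, 50, 50 and 49 of the 51 members, which is 92.2%, 98.0%, 98.0% and 96.1%. Among all genes that share was 57.7%, 71.5%, 60.0% and 66.5%. That band was chosen after the values had been seen. Under Cdk8 dsRNA 40 of the 51 differences were negative, with a median of -0.025 log2, against 2690 negative of 5961 and a median of 0.0155 among all genes. A split of similar size lay between the control dsRNAs. With GFP set against Luc dsRNA 38 of the 51 were positive, with a median of 0.0236 (all genes: 3284 of 5961, median 0.0075). The members' median was -0.0112 for CycC, 0.00146 for Med12 and 0.0129 for Med13 dsRNA, against 0.0074, 0.035 and 0.0327 among all genes. Genes are not independent replicates, so these signs carry no test.

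Bright probe sets are measured with less scatter, so the counts were also set against bright genes alone. Among the 1961 genes with a mean log2 level of 10 or more, 23.2%, 29.3%, 46.4% and 37.2% passed the threshold under Cdk8, CycC, Med12 and Med13 dsRNA. Among the 47 members at that level the shares were 2.13%, 4.26%, 17% and 6.38%. The median log2 level was 12.22 for these members and 11.09 for the 1961 genes, so the sets were not matched in level. The median spread of single arrays, as moderated by limma, was 0.0592 log2 for members and 0.0793 for all genes. The members thus had no larger spread than other genes.

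**Figure D1:**
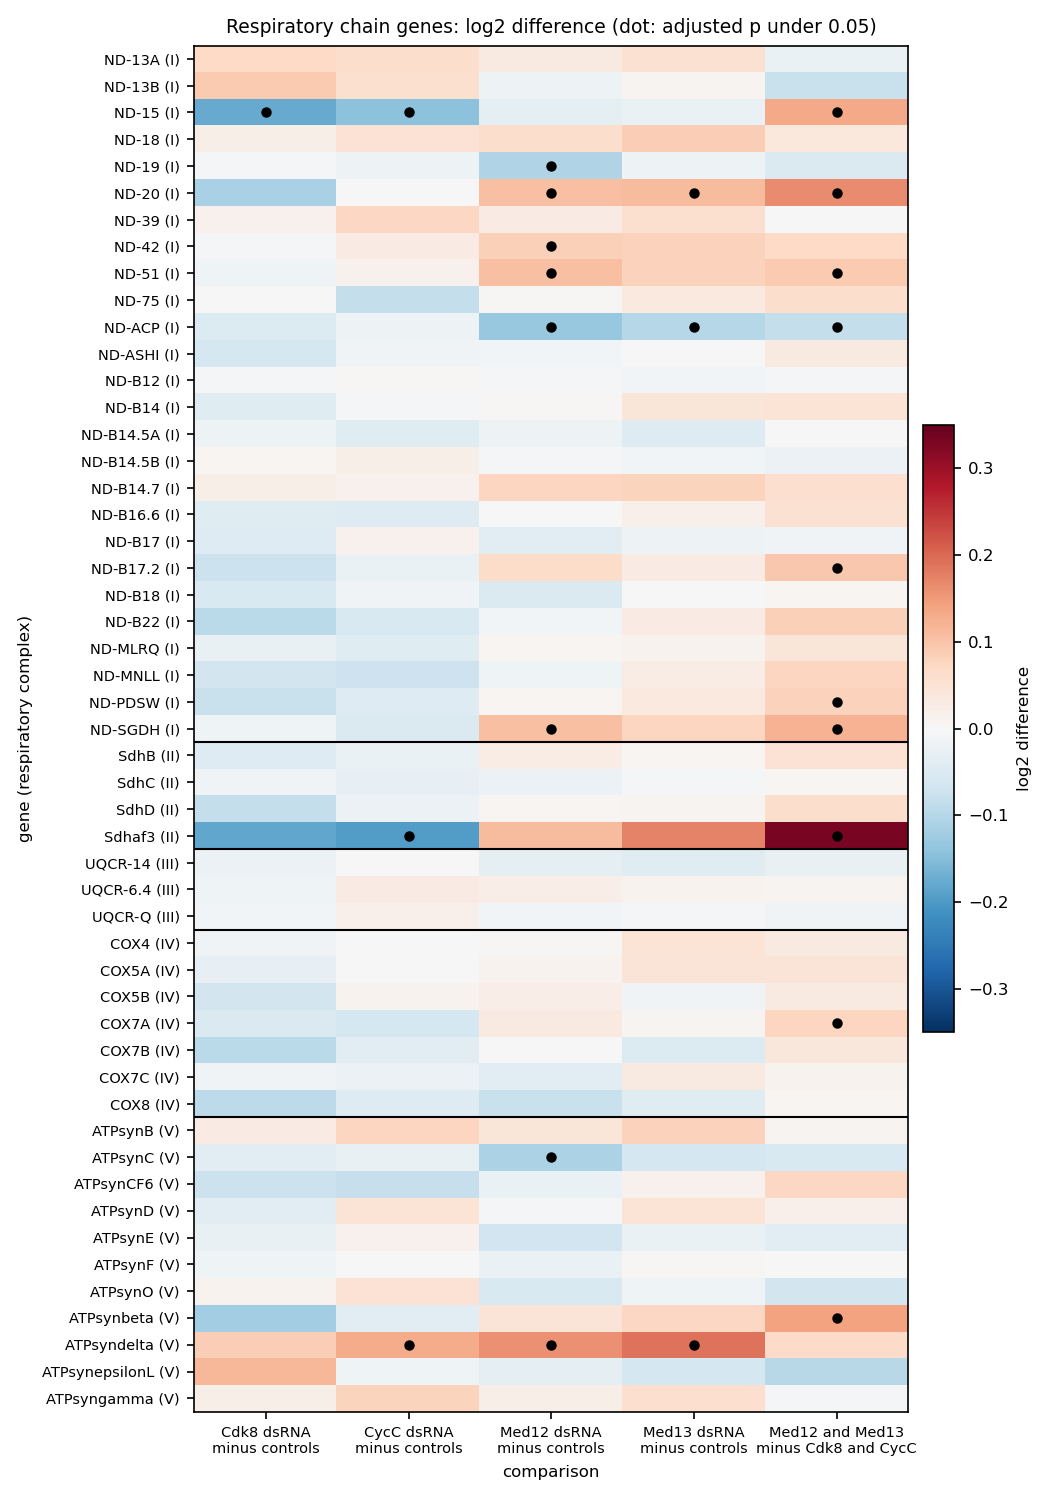
Log2 difference of each of the 51 tested respiratory chain genes (down the page, by complex I to V) in 5 comparisons (across), with a colour scale from -0.35 to 0.35 and a dot where the adjusted p was under 0.05. Most cells are near white and 1, 3, 8, 3 and 10 cells carry a dot from left to right.

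Over the 4 knockdowns 41 members passed the threshold in none, 6 in a single one, 3 in 2 of them, 1 in 3 of them and 0 in all 4. The member that passed in 3 was ATPsyndelta, whose calls rested on low Luc dsRNA arrays, as described below. The shares of all genes that passed in none, 1, 2 or 3 knockdowns were not counted. Of all genes tested 7.36% passed in all 4 knockdowns and 4.53% did so in one direction. No member passed in opposite directions in different knockdowns. The F-test over the 4 knockdowns passed 8 members, against 54.5% of all genes. The 4 knockdowns share their control arrays, so their calls are not independent of one another.

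**Figure D2:**
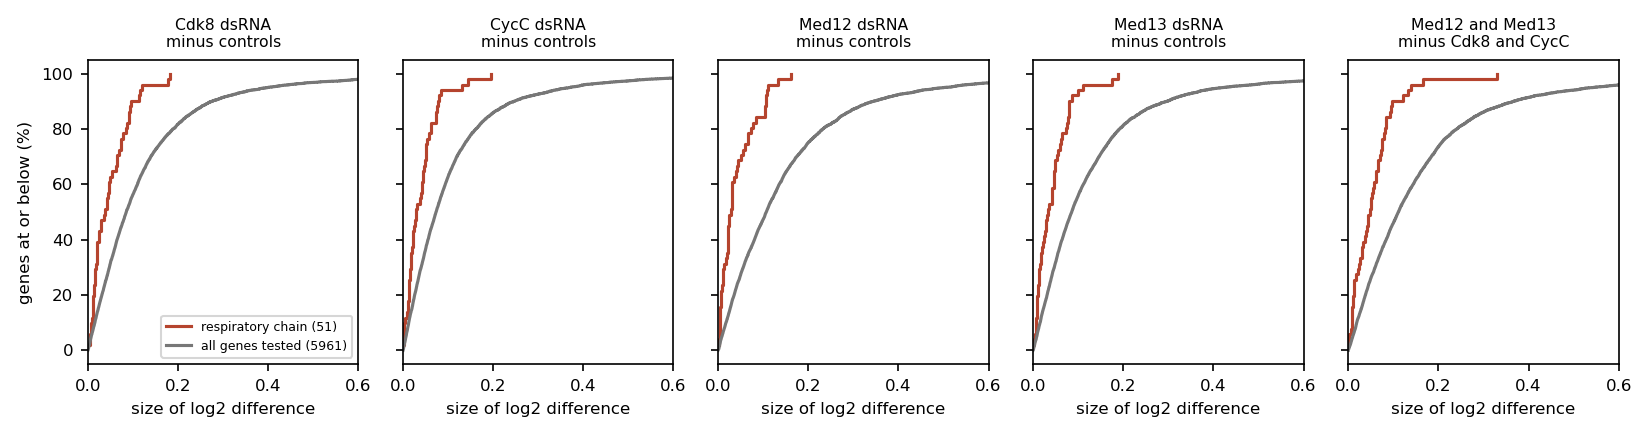
Cumulative share of genes (vertical axis, percent) whose log2 difference is at or below a given size (horizontal axis), for the 51 respiratory chain genes (red) and all 5961 genes tested (grey), in 5 comparisons. The red line lies left of the grey one in each, with medians of 0.0385 against 0.0850 for Cdk8 dsRNA and 0.0490 against 0.111 for the pair comparison.

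Complex I, the NADH dehydrogenase, held 7 of the 10 members that passed in any knockdown, and 26 of the 51 tested. Of its 26 tested genes 1 fell under Cdk8 dsRNA, 1 fell under CycC dsRNA, 4 rose and 2 fell under Med12 dsRNA, and 1 rose and 1 fell under Med13 dsRNA. These are 3.85%, 3.85%, 23.1% and 7.69% of its tested genes, each below the share of all genes tested given above. The fall shared by the Cdk8 and CycC knockdowns was that of ND-15, an accessory subunit of the membrane arm. The accessory subunits surround the catalytic core and are needed to assemble it. Only 3 of the tested complex I genes encode core subunits, namely ND-20, ND-51 and ND-75.

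ND-15 measured 11.12 and 11.16 in Cdk8, 11.23, 11.10, 11.18 and 11.20 in CycC, 11.30, 11.34, 11.23 and 11.30 in Med12, and 11.27, 11.32, 11.27 and 11.32 in Med13 dsRNA arrays, against 11.37, 11.35, 11.30 and 11.33 in GFP and 11.44, 11.21, 11.24 and 11.33 in Luc dsRNA arrays (log2 intensity). Both Cdk8 dsRNA arrays lay below all 8 control arrays, and the CycC dsRNA arrays overlapped only the lower end of the Luc dsRNA arrays. The log2 difference from controls was -0.18 ± 0.05 (SE, limma adjusted p 0.0136) under Cdk8 dsRNA and -0.14 ± 0.04 (adjusted p 0.00771) under CycC dsRNA. Under Med12 dsRNA it was -0.03 ± 0.04 (adjusted p 0.548) and under Med13 dsRNA -0.02 ± 0.04 (adjusted p 0.661). ND-15 passed the threshold against each control dsRNA taken alone, with -0.19 against GFP and -0.16 against Luc dsRNA for Cdk8, and -0.16 and -0.13 for CycC. The Cdk8 result rests on 2 arrays: with Cdk8 replicate 1 left out it was -0.16 (adjusted p 0.166), and with Cdk8 replicate 2 left out -0.20 (adjusted p 0.0667). With only the Cdk8 and control arrays in the fit its adjusted p was 0.0599.

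Both core subunits that passed the threshold rose under Med12 dsRNA, and ND-20 under Med13 dsRNA as well. ND-51 is the flavin-binding subunit that takes electrons from NADH, and ND-20 is the iron-sulphur subunit beside the ubiquinone site. ND-51 measured 11.63, 11.55, 11.50 and 11.58 in Med12 and 11.51, 11.53, 11.62 and 11.51 in Med13 dsRNA arrays, against 11.45, 11.42, 11.49 and 11.47 in GFP and 11.49, 11.42, 11.48 and 11.48 in Luc dsRNA arrays. All 8 arrays of the Med12 and Med13 knockdowns lay above all 8 control arrays. ND-51 rose by 0.10 ± 0.03 log2 under Med12 dsRNA (adjusted p 0.0114), against each control dsRNA taken alone as well, and its difference was 0.08 ± 0.03 under Med13 dsRNA (adjusted p 0.0589). Without Med12 replicate 1 the Med12 difference was 0.08 with an adjusted p of 0.0605.

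ND-20 measured 12.29, 12.31, 12.27 and 12.33 in Med12 and 12.24, 12.33, 12.36 and 12.29 in Med13 dsRNA arrays, against 12.23, 12.24, 12.21 and 12.21 in GFP and 12.18, 12.10, 12.14 and 12.24 in Luc dsRNA arrays. The Med12 dsRNA arrays lay above all control arrays and the lowest Med13 dsRNA array met the highest control arrays. The gene rose by 0.11 ± 0.04 log2 in both knockdowns (adjusted p 0.0240 for Med12, 0.0230 for Med13). The adjusted p was 0.0601 to 0.0736 without Med12 replicate 2 or 4, and 0.0713 to 0.0925 without Med13 replicate 2 or 3. With the GFP dsRNA arrays as the only controls the differences were 0.08 for Med12 (adjusted p 0.158) and 0.08 for Med13 (adjusted p 0.153). With each array centred on its median they were 0.08 (adjusted p 0.0583) and 0.08 (adjusted p 0.0826).

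The other complex I genes that passed the threshold were accessory subunits, called under Med12 dsRNA and, for ND-ACP, under Med13 dsRNA too. ND-SGDH rose by 0.10 ± 0.04 log2 (adjusted p 0.0289) and ND-42 by 0.08 ± 0.03 (adjusted p 0.0461), both subunits of the membrane arm. ND-19 fell by 0.11 under Med12 dsRNA, with an SE of 0.04 and an adjusted p of 0.0232. Under Med13 dsRNA the differences were 0.07 ± 0.04 (adjusted p 0.134) for ND-SGDH, 0.08 ± 0.03 (adjusted p 0.0700) for ND-42 and -0.02 ± 0.04 (adjusted p 0.724) for ND-19, and none of the 3 passed between Med12 and Med13 dsRNA. With each array centred on its median the Med12 differences were 0.08 (adjusted p 0.101) for ND-SGDH and 0.06 (adjusted p 0.0798) for ND-42. Against the Luc dsRNA arrays alone the adjusted p was 0.0617 for ND-SGDH, 0.198 for ND-42 and 0.0606 for ND-19, and against the GFP dsRNA arrays alone ND-SGDH had 0.0654. ND-SGDH missed the threshold without Med12 replicate 1 or 4, GFP replicate 2 or Luc replicate 2 (adjusted p 0.0509 to 0.122), and ND-19 without Med12 replicate 3 (-0.08, adjusted p 0.107). ND-42 missed it for 16 of the 22 arrays left out in turn (adjusted p up to 0.133) and passed it without CycC replicate 2 or 3, Med12 replicate 3, Med13 replicate 1 or 3, or Luc replicate 4.

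ND-ACP, the mitochondrial acyl carrier protein, serves fatty acid synthesis as well as complex I. It measured 12.28, 12.37, 12.22 and 12.30 in Med12 and 12.26, 12.37, 12.38 and 12.30 in Med13 dsRNA arrays, against 12.43, 12.51, 12.42 and 12.45 in GFP and 12.44, 12.34, 12.42 and 12.41 in Luc dsRNA arrays. All arrays of both knockdowns lay below the GFP dsRNA arrays, and only Luc replicate 2 reached into their range. The log2 difference was -0.13 ± 0.04 (adjusted p 0.00590) under Med12 and -0.10 ± 0.04 (adjusted p 0.0421) under Med13 dsRNA. The other probe sets of ND-ACP did not show it: the second gave -0.02 and -0.01 and the third 0.04 and 0.04, and the mean of the 3 gave -0.04 (adjusted p 0.366) and -0.02 (adjusted p 0.597). Which probe set reads the main transcript was not tested. The Med13 result missed the threshold without Med13 replicate 1 or 4, GFP replicate 2 or 4, or Luc replicate 1, 3 or 4 (adjusted p 0.0579 to 0.158). It also missed it with the replicate number as a block (-0.10, adjusted p 0.0560), against the Luc dsRNA arrays alone (-0.07, adjusted p 0.209), without the floor (adjusted p 0.0509) and with only the compared arrays (adjusted p 0.0527). The Med12 result missed it only narrowly against the Luc dsRNA arrays alone, at -0.11.

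The other tested complex I genes passed in no knockdown. They include ND-75, the large iron-sulphur subunit of the electron input module, whose largest difference was -0.08 ± 0.06 under CycC dsRNA. ND-MLRQ is placed in complex I by its name, although its mammalian counterpart is now assigned to complex IV.

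**Figure D3:**
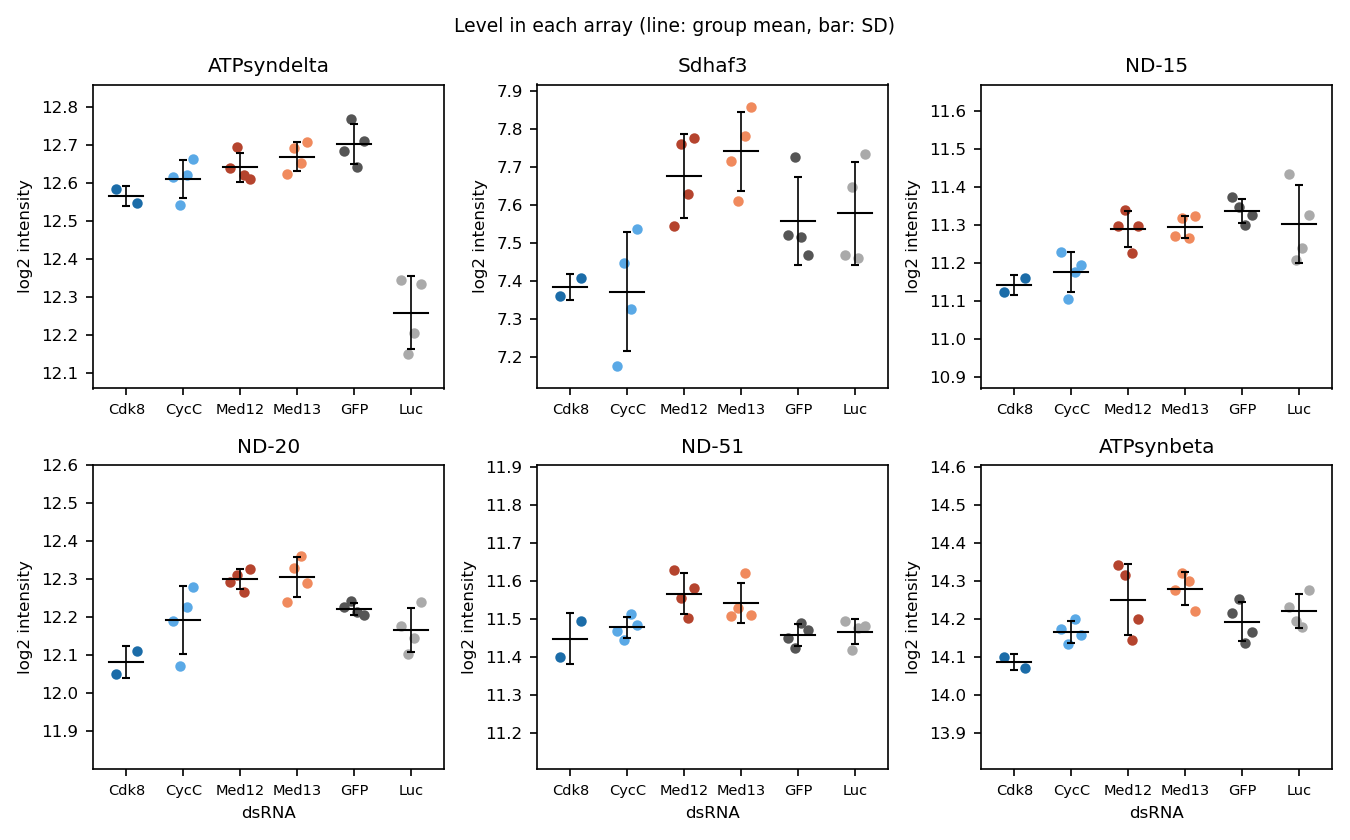
Log2 intensity of ATPsyndelta, Sdhaf3, ND-15, ND-20, ND-51 and ATPsynbeta in each array, by dsRNA group (Cdk8, CycC, Med12, Med13, GFP, Luc), with the group mean as a line and the SD as a bar, each panel spanning 0.8 log2. In the first panel the 4 Luc dsRNA arrays lie at 12.15 to 12.34, below all other arrays, while in the others most groups overlap.

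Complex II, succinate dehydrogenase, also serves the citric acid cycle. Its iron-sulphur subunit SdhB and its membrane anchors SdhC and SdhD passed the threshold in no knockdown. SdhB averaged 11.35 ± 0.03 (SD, n = 2) in Cdk8, 11.38 ± 0.04 in CycC, 11.42 ± 0.04 in Med12 and 11.41 ± 0.07 in Med13 dsRNA arrays, against 11.39 ± 0.04 in GFP and 11.41 ± 0.02 in Luc dsRNA arrays (n = 4 each). SdhD averaged 10.53 ± 0.06 (n = 2), 10.59 ± 0.10, 10.62 ± 0.04 and 10.62 ± 0.09 in the same 4 knockdowns, against 10.60 ± 0.05 in GFP and 10.62 ± 0.03 in Luc dsRNA arrays.

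Sdhaf3, which in yeast and animals helps to mature the iron-sulphur subunit of complex II, was the member that separated the knockdowns most. It measured 7.54, 7.76, 7.63 and 7.78 in Med12 and 7.72, 7.61, 7.78 and 7.86 in Med13 dsRNA arrays, against 7.36 and 7.41 in Cdk8 and 7.18, 7.45, 7.32 and 7.54 in CycC dsRNA arrays. The control arrays lay between, at 7.52, 7.73, 7.51 and 7.47 with GFP and 7.47, 7.65, 7.46 and 7.73 with Luc dsRNA. All 8 arrays of the Med12 and Med13 knockdowns lay above all 6 arrays of the Cdk8 and CycC knockdowns. The gap was very narrow, since the lowest Med12 and the highest CycC dsRNA array both round to 7.54. Both sides overlapped the controls apart from Cdk8, whose 2 arrays were below them. Against controls Sdhaf3 fell by 0.20 under CycC dsRNA (SE 0.07, adjusted p 0.0462), and its difference was -0.18 ± 0.09 (adjusted p 0.175) for Cdk8, 0.11 ± 0.07 (adjusted p 0.220) for Med12 and 0.17 ± 0.07 (adjusted p 0.0633) for Med13. The CycC result missed the threshold for 14 of the 22 arrays left out in turn (adjusted p 0.0502 to 0.215). It passed without CycC replicate 4, Med12 replicate 1 or 4, Med13 replicate 2 or 4, GFP replicate 4, or Luc replicate 1 or 3. It also missed it against GFP dsRNA alone (adjusted p 0.123), against Luc dsRNA alone (adjusted p 0.0797), without the floor (adjusted p 0.109) and with only the compared arrays (adjusted p 0.0814).

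Complex III, which carries electrons from ubiquinol to cytochrome c, had 3 tested members, all small subunits, and 0 passed the limma threshold in any comparison made. At an unadjusted p under 0.05 the count was also 0 in the 4 knockdowns and in the comparison of the pairs. Among the 5961 genes tested it was 1857, 2084, 2985 and 2469 under Cdk8, CycC, Med12 and Med13 dsRNA. Between the pairs it was 3282. UQCR-14 averaged 13.90 ± 0.02 (SD, n = 2) in Cdk8, 13.92 ± 0.05 in CycC, 13.89 ± 0.05 in Med12 and 13.88 ± 0.02 in Med13 dsRNA arrays, against 13.92 ± 0.07 in GFP and 13.92 ± 0.06 in Luc dsRNA arrays (n = 4 each). UQCR-Q stayed between 10.25 and 10.39 and UQCR-6.4 between 13.25 and 13.43 on all 22 arrays. The 95% intervals of all 3 genes in the 4 knockdowns lay between -0.114 and 0.102.

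Complex IV, cytochrome c oxidase, had 7 tested members, all nuclear-encoded: COX4, COX5A, COX5B, COX7A, COX7B, COX7C and COX8. In the 4 knockdowns 0 of them passed the limma threshold, and at an unadjusted p under 0.05 only COX7A under CycC dsRNA did. At that unadjusted level 2084 of 5961 genes tested passed under CycC dsRNA. COX8 measured 13.37 and 13.47 with Cdk8, 13.38 to 13.56 with CycC, 13.37 to 13.49 with Med12 and 13.41 to 13.50 with Med13 dsRNA, against 13.43 to 13.65 with GFP and 13.29 to 13.59 with Luc dsRNA. Its differences from controls were -0.09, -0.05, -0.08 and -0.04 with an SE of 0.06 or 0.05, and the lowest adjusted p was 0.221. COX5B averaged 12.61 in Cdk8, 12.68 in CycC, 12.69 in Med12 and 12.66 in Med13 dsRNA arrays, against 12.68 in GFP and 12.66 in Luc dsRNA arrays, with SDs of at most 0.08.

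ATP synthase had 11 tested members. Of these 1 rose under CycC dsRNA, 1 rose and 1 fell under Med12 dsRNA, 1 rose under Med13 dsRNA, and 0 passed under Cdk8 dsRNA (limma). At an unadjusted p under 0.05 it was 1 under Cdk8 dsRNA, against 1857 of 5961 genes tested. All 3 rises were those of ATPsyndelta, a subunit of the central stalk that joins the catalytic head to the rotating membrane ring.

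The rises of ATPsyndelta rested on the Luc dsRNA arrays. It measured 12.58 and 12.55 in Cdk8, 12.61, 12.54, 12.62 and 12.66 in CycC, 12.64, 12.69, 12.62 and 12.61 in Med12, and 12.62, 12.69, 12.65 and 12.71 in Med13 dsRNA arrays, against 12.68, 12.77, 12.64 and 12.71 in GFP and 12.34, 12.15, 12.20 and 12.33 in Luc dsRNA arrays. The 4 Luc dsRNA arrays lay below all 18 others, and the GFP dsRNA arrays overlapped those of CycC, Med12 and Med13 dsRNA and lay above the Cdk8 dsRNA arrays. Against the mean of both controls the differences were 0.13 ± 0.04 (adjusted p 0.0150) for CycC, 0.16 ± 0.04 (adjusted p 0.00180) for Med12, 0.19 ± 0.04 (adjusted p 0.000603) for Med13 and 0.09 ± 0.05 (adjusted p 0.245) for Cdk8. Against the GFP dsRNA arrays alone the signs turned, to -0.09 (adjusted p 0.161) for CycC, -0.06 (adjusted p 0.293) for Med12, -0.03 (adjusted p 0.632) for Med13 and -0.14 (adjusted p 0.0949) for Cdk8. Against the Luc dsRNA arrays alone the differences were 0.35, 0.38, 0.41 and 0.31, with the largest adjusted p at 0.000322. Without CycC replicate 4 the CycC difference from both controls was 0.11 (adjusted p 0.0626).

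Set directly against Luc dsRNA, GFP dsRNA gave an ATPsyndelta level higher by 0.44 ± 0.04 log2 (1.36-fold, adjusted p 1.34e-05). It was the only member to pass in that comparison, in which 0.0336% of all genes did (0.0168% higher with GFP dsRNA, 0.0168% lower). That share is 2 genes, and the other was mRpS25, a mitochondrial ribosomal protein gene outside the name rule, named here after its values had been seen. Its level was 9.62, 9.59, 9.69 and 9.68 in GFP, against 10.21, 9.98, 10.11 and 10.14 in Luc dsRNA arrays, a log2 difference of -0.47 ± 0.05 (adjusted p 2.12e-05). For mRpS25 the GFP dsRNA arrays were the low ones, and the 14 knockdown arrays lay between 9.88 and 10.23. The sequences of the control dsRNAs were not analysed here, and whether either matches one of these transcripts was not tested.

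The single fall in ATP synthase was that of ATPsynC, the subunit of the proton-carrying ring. It measured 13.53, 13.42, 13.35 and 13.43 in Med12 dsRNA arrays, against 13.59, 13.59, 13.54 and 13.54 in GFP and 13.54, 13.41, 13.52 and 13.62 in Luc dsRNA arrays. Med12 replicate 1 and Luc replicate 2 made the groups overlap. It fell by 0.11 under Med12 dsRNA (SE 0.04, adjusted p 0.0321), and missed the threshold without Med12 replicate 2, 3 or 4, GFP replicate 1 or Luc replicate 4 (adjusted p 0.0512 to 0.136). It also missed it after quantile normalization (-0.08, adjusted p 0.103), against Luc dsRNA alone (-0.09, adjusted p 0.147) and with only the compared arrays (adjusted p 0.0539). ATPsynB, of the peripheral stalk, differed by 0.03, 0.08, 0.04 and 0.08 under Cdk8, CycC, Med12 and Med13 dsRNA (lowest adjusted p 0.0567).

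The second comparison set the Med12 and Med13 knockdowns as a pair against the Cdk8 and CycC knockdowns as a pair. It leaves the controls, and with them the low Luc dsRNA values of ATPsyndelta, out of the difference. Of the 51 members 9 were higher and 1 lower in the Med pair (19.6%), against 49.1% of all genes tested (26.9% higher, 22.2% lower). With each array centred on its median the split was 6 higher and 3 lower. Complex I held 7 of these 10 genes, and complexes II, IV and V held 1 each. The median size of the difference was 0.0490 log2 for members, against 0.111 for all genes. Without Cdk8 replicate 2 the count was 6, and after quantile normalization it was 18, including the same 10.

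Sdhaf3 had the largest difference, higher by 0.33 ± 0.06 log2 in the Med pair (1.26-fold, adjusted p 0.000227). ND-20 followed with 0.17 ± 0.03 (adjusted p 0.000310). Its levels in the Med pair, given above, lay at 12.24 to 12.36, against 12.05 and 12.11 in Cdk8 and 12.19, 12.07, 12.23 and 12.28 in CycC dsRNA arrays. Both Cdk8 dsRNA arrays were below the Med pair, and the CycC dsRNA arrays reached into it. ND-15 was higher by 0.13 ± 0.03 (adjusted p 0.00302). Probe sets shared with another gene were outside the name rule and were fitted by limma among all 7289 probe sets over the floor. The one shared by ND-AGGG of complex I and CG40472 was higher by 0.32 ± 0.06 (adjusted p 0.000447). Those shared by ATPsynG and beat-Vb and by COX6B and CG18809 did not pass between the pairs (adjusted p 0.681 and 0.272). Against controls the ND-AGGG and CG40472 probe set differed by -0.20 ± 0.07 under CycC dsRNA (adjusted p 0.0485). Its other differences were -0.14 ± 0.09 (adjusted p 0.338) for Cdk8, 0.15 ± 0.07 (adjusted p 0.109) for Med12 and 0.15 ± 0.07 (adjusted p 0.123) for Med13 dsRNA.

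ATPsynbeta, the catalytic subunit of the ATP synthase head, measured 14.34, 14.32, 14.14 and 14.20 in Med12 and 14.28, 14.32, 14.30 and 14.22 in Med13 dsRNA arrays, against 14.10 and 14.07 in Cdk8 and 14.17, 14.13, 14.20 and 14.16 in CycC dsRNA arrays. The Med13 arrays lay above all 6 arrays of the other pair, and Med12 replicates 3 and 4 fell among the CycC dsRNA arrays. The pair difference was 0.14 ± 0.03 (adjusted p 0.00168). The second probe set of ATPsynbeta gave 0.04 ± 0.04 (adjusted p 0.488), and no knockdown passed against controls on either probe set.

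Smaller rises in the Med pair were those of ND-SGDH at 0.12 ± 0.03 (adjusted p 0.00539), ND-B17.2, an accessory subunit, at 0.10 ± 0.03 (adjusted p 0.0172), and ND-51 at 0.09 ± 0.03 (adjusted p 0.0119). ND-SGDH and ND-51 missed the threshold without Cdk8 replicate 1 (adjusted p 0.0657 and 0.111) and ND-B17.2 without Cdk8 replicate 2 (adjusted p 0.0646). ND-PDSW, of the membrane arm, was higher by 0.08 ± 0.03 (adjusted p 0.0355). It missed the threshold without Cdk8 replicate 1 or 2, CycC replicate 1, 2 or 3, Med12 replicate 2, or Med13 replicate 2 or 3 (adjusted p 0.0502 or more), and with only the compared arrays (adjusted p 0.0713). With each array centred on its median ND-B17.2 stood at 0.08 (adjusted p 0.0531) and ND-PDSW at 0.06 (adjusted p 0.0853).

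COX7A, a subunit of complex IV, was the only one of its complex to pass. It measured 13.44, 13.56, 13.45 and 13.47 in Med12 and 13.45, 13.46, 13.50 and 13.42 in Med13 dsRNA arrays, against 13.41 and 13.39 in Cdk8 and 13.41, 13.34, 13.40 and 13.40 in CycC dsRNA arrays. Both sides stayed apart, with 13.42 as the lowest value of the Med pair and 13.41 as the highest of the other. The difference was 0.08 ± 0.03 (adjusted p 0.0201), 0.07 without Cdk8 replicate 2 (adjusted p 0.0781), and 0.06 with each array centred on its median (adjusted p 0.0745). ND-ACP was the lower one, at -0.08 ± 0.03 (adjusted p 0.0438), on 1 of its 3 probe sets. It missed the threshold for 12 of the 22 arrays left out in turn (adjusted p 0.0503 to 0.179). With the replicate number as a block it was -0.09 (adjusted p 0.0547), without the floor the adjusted p was 0.0531, and with only the compared arrays it was 0.0734.

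For 7 of these 10 genes the difference from controls had opposite signs in the means of the pairs. The 10 were picked for a difference between the pairs, which itself favours opposite signs. The share among all genes called in this comparison was not counted, so the 7 describe no trait of the members. The members' median difference in the pair comparison was 0.0312 log2, against 0.0132 for all genes. Deviations from the mean of the GFP and Luc dsRNA group means were also taken as 1 value per array. The median over the 51 members ranged from -0.0735 in Luc replicate 2 to 0.0530 in Med12 replicate 2. Every group held arrays on both sides of 0 except Cdk8, with -0.0163 and -0.0479.

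The last comparisons were made within each pair. Between Med12 and Med13 dsRNA 0 members passed the limma threshold, against 0.872% of all genes (0.218% higher with Med12 dsRNA, 0.654% lower). At an unadjusted p under 0.05 the count was 1 of 51 members, against 660 of 5961 genes tested. Between Cdk8 and CycC dsRNA 0 members passed, against 0.101% of all genes (0.0671% higher with Cdk8 dsRNA, 0.0336% lower). At an unadjusted p under 0.05 the count was again 1 of 51 members, against 290 of 5961 genes tested. The interval of the difference lay within 0.25 either way for all 51 members between Med12 and Med13, and for 49 of 51 between Cdk8 and CycC. In these pairs a difference of that size was therefore outside the interval for nearly every member, though smaller ones were not.

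Genes that work beside the respiratory chain were described by lists of related genes. Their counts are to be read against all genes tested, of which 10.6%, 13.4%, 26.5% and 21% rose and 8.07%, 10.9%, 15.5% and 11.2% fell under Cdk8, CycC, Med12 and Med13 dsRNA. The list of other subunits named outside the prefixes, with cytochrome c, had 7 tested genes. Of these 0 passed under Cdk8, and 1 fell under each of CycC, Med12 and Med13 dsRNA, the same gene each time. That gene was ox, which encodes a small subunit of complex III: -0.14 ± 0.05 (adjusted p 0.0377) for CycC, -0.21 ± 0.05 (adjusted p 0.00194) for Med12, -0.16 ± 0.05 (adjusted p 0.0158) for Med13 and -0.16 ± 0.06 (adjusted p 0.0853) for Cdk8. It stood at 11.69 and 11.66 in Cdk8, 11.65 to 11.80 in CycC, 11.52 to 11.70 in Med12 and 11.63 to 11.72 in Med13 dsRNA arrays, against 11.86 to 11.97 in GFP and 11.59 to 11.91 in Luc dsRNA arrays. All knockdown arrays lay below the GFP dsRNA arrays and overlapped the Luc dsRNA arrays. Levy, the complex IV subunit, did not pass in any knockdown and was higher by 0.09 ± 0.03 in the Med pair (adjusted p 0.0117).

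Assembly factors had 12 tested genes, of which 2 fell under Cdk8, 1 fell under CycC, 1 rose and 1 fell under Med12, and 1 rose under Med13 dsRNA. Cox17, the copper chaperone for complex IV, fell by 0.23 under Med12 dsRNA (SE 0.05, adjusted p 0.000630), with its 4 arrays below all controls. Coa7 differed by -0.19 ± 0.06 (adjusted p 0.0324) under Cdk8 and -0.15 ± 0.05 (adjusted p 0.0279) under CycC dsRNA. The complex I assembly factor sicily fell by 0.22 under Cdk8 dsRNA (SE 0.06, adjusted p 0.0199).

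Genes that express mitochondrial DNA or regulate mitochondrial gene programmes had 14 tested members. In Cdk8, CycC, Med12 and Med13 dsRNA 0, 1, 3 and 3 of them rose and 1, 0, 2 and 0 fell. The largest change was that of ewg, the fly counterpart of the mammalian nuclear respiratory factor NRF-1. It differed by -0.25 ± 0.07 (adjusted p 0.0236) under Cdk8, -0.10 ± 0.06 (adjusted p 0.254) under CycC, 0.37 ± 0.06 (adjusted p 2.93e-05) under Med12 and 0.31 ± 0.06 (adjusted p 0.000300) under Med13 dsRNA. Its level in the Med pair was higher by 0.51 ± 0.05 than in the Cdk8 and CycC pair (adjusted p 8.55e-08), with no overlap between the arrays. The stress-response transcription factor crc rose by 0.16 ± 0.04 under Med12 (adjusted p 0.00127) and by 0.18 ± 0.04 under Med13 dsRNA (adjusted p 0.000957), while mtSSB, which coats single-stranded mitochondrial DNA, fell by 0.16 under Med12 dsRNA (SE 0.04, adjusted p 0.00344).

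The citric acid cycle and pyruvate dehydrogenase had 15 tested genes, of which 0, 2, 4 and 3 rose and 1, 1, 2 and 3 fell under Cdk8, CycC, Med12 and Med13 dsRNA. Men-b, a malic enzyme, differed by -0.48 ± 0.04 (adjusted p 1.46e-08) under Med12 and -0.40 ± 0.04 (adjusted p 2.38e-07) under Med13 dsRNA, below all controls in both. Its differences under Cdk8 and CycC dsRNA were 0.03 ± 0.05 and 0.04 ± 0.04. A second malic enzyme gene, Men, fell by 0.18 under Med12 and by 0.27 under Med13 dsRNA (SE 0.06 each).

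Glycolysis had 10 tested genes, of which 1, 2, 5 and 1 rose and 2, 1, 1 and 1 fell in the same order. The hexokinase gene Hex-A fell in all 4 knockdowns, with every knockdown array below all controls: -0.26 ± 0.07, -0.31 ± 0.06, -0.38 ± 0.06 and -0.27 ± 0.06 (largest adjusted p 0.0165). The aldolase gene Ald1 rose by 0.57 ± 0.09 under Med12 (adjusted p 5.36e-05) and by 0.41 ± 0.09 under Med13 dsRNA (adjusted p 0.00196). Pfk, the phosphofructokinase gene, rose by 0.30 ± 0.07 under CycC and by 0.33 ± 0.07 under Med12 dsRNA.

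Protein import genes gave 0 rises and 6 falls among 11 tested under Med12 dsRNA, 0 and 2 under Med13, 1 and 2 under CycC, and 0 and 0 under Cdk8 dsRNA. Tim8, a chaperone of the intermembrane space, fell by 0.24 under Med12 (SE 0.04, adjusted p 9.72e-05) and by 0.14 under Med13 dsRNA (SE 0.04, adjusted p 0.00960). Tim23, the channel of the inner membrane, fell by 0.20 under CycC dsRNA (SE 0.05, adjusted p 0.00303). Blp, a subunit of the import motor, rose by 0.17 ± 0.05 under CycC dsRNA (adjusted p 0.0140).

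Enzymes of iron-sulphur cluster, haem and coenzyme Q synthesis had 20 tested genes, of which 2, 3, 4 and 4 rose and 2, 2, 0 and 1 fell under Cdk8, CycC, Med12 and Med13 dsRNA. Pbgs, an early enzyme of haem synthesis, passed the threshold in all 4 knockdowns with opposite directions in the pairs. It differed by -0.26 ± 0.08 (adjusted p 0.0223) under Cdk8, -0.25 ± 0.06 (adjusted p 0.00367) under CycC, 0.23 ± 0.06 (adjusted p 0.00430) under Med12 and 0.23 ± 0.06 (adjusted p 0.00623) under Med13 dsRNA. The Med pair was higher by 0.48 ± 0.05 (adjusted p 3.32e-07), with no overlap. Coq7, of coenzyme Q synthesis, rose by 0.14 ± 0.04 under Med12 dsRNA (adjusted p 0.0111). Urod, a later haem enzyme, rose by 0.16 ± 0.05 under Cdk8 (adjusted p 0.0329) and by 0.15 ± 0.04 under CycC dsRNA (adjusted p 0.00978).

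Carriers and pores of the mitochondrial membranes had 13 tested genes, of which 1, 2, 2 and 2 rose and 0, 0, 2 and 1 fell. The aspartate/glutamate carrier aralar1 rose by 0.29 ± 0.08 under Cdk8 and by 0.27 ± 0.06 under CycC dsRNA, and fell by 0.20 under Med12 dsRNA (SE 0.06, adjusted p 0.0149). Chaperones, proteases and antioxidants had 17 tested genes, of which 0, 1, 3 and 3 rose and 0, 0, 2 and 0 fell. Catalase (Cat), which removes hydrogen peroxide, rose by 0.32 ± 0.04 under Med12 (adjusted p 6.38e-06) and by 0.38 ± 0.04 under Med13 dsRNA (adjusted p 7.76e-07). Dynamics and mitophagy had 10 tested genes, of which 1, 1, 5 and 2 rose and 1, 2, 1 and 0 fell. Pink1, the kinase that marks damaged mitochondria, rose by 0.16 ± 0.05 under Cdk8, 0.23 ± 0.04 under Med12 and 0.20 ± 0.04 under Med13 dsRNA, and was 0.10 ± 0.04 (adjusted p 0.0724) under CycC dsRNA. Marf, the fly mitofusin, rose by 0.21 ± 0.06 under Med12 dsRNA.

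**Figure D4:**
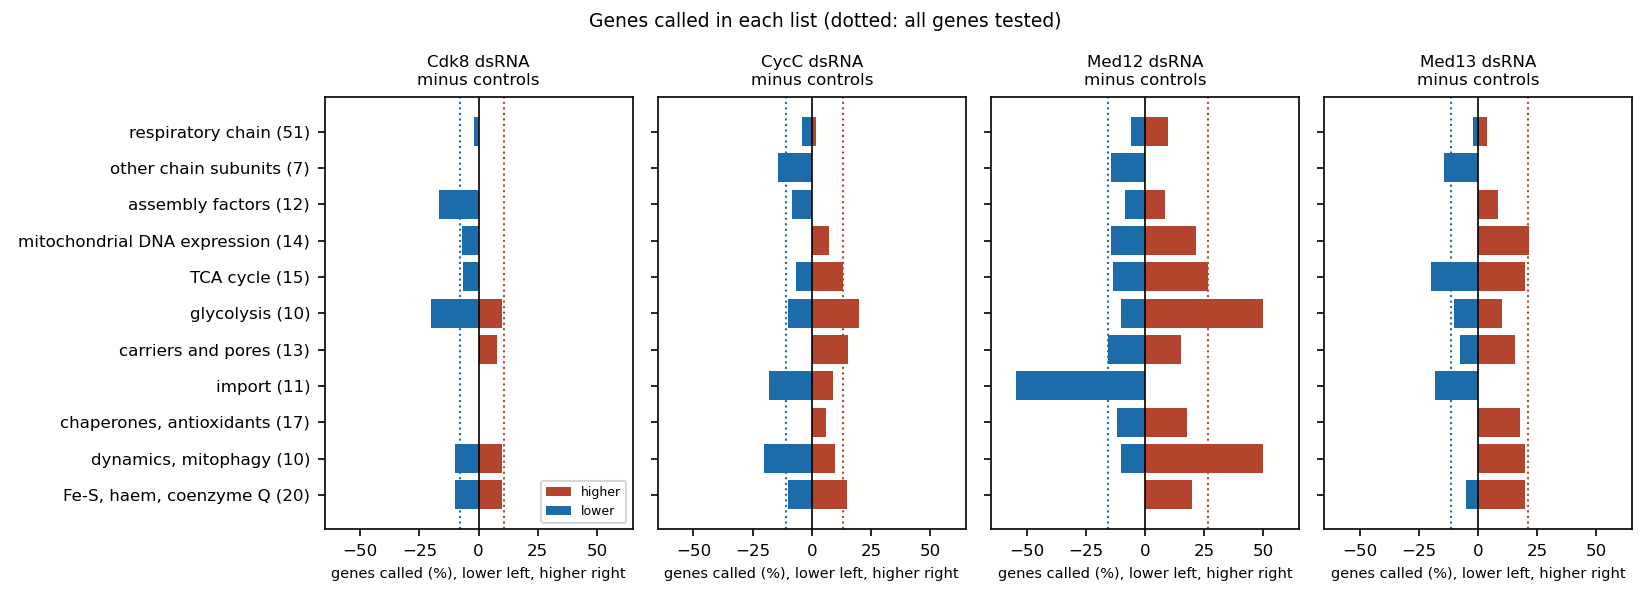
Share of the tested genes of each list (down the page, number tested in brackets) that were higher (red, to the right) or lower (blue, to the left) at an adjusted p under 0.05 in each knockdown, in percent of the genes tested, with dotted lines at the shares among all genes. The respiratory chain bars stay inside both dotted lines in all 4 panels. Bars of several other lists pass a dotted line. Among them are import, glycolysis and dynamics under Med12, assembly factors under Cdk8 and the citric acid cycle under Med13 dsRNA.

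Genes of these lists with a difference of over 0.25 log2 in a knockdown, such as Men-b, Ald1, Hex-A, ewg and Cat, had no counterpart among the 51 members. Transcripts of the mitochondrial genome were not analysed here, since none of the 15 listed is named by a probe set with a single symbol.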

How the data were processed

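Messenger RNA was measured in S2 cells with 22 Affymetrix arrays. The authors deposited 1 intensity per probe set and array, on a linear scale from 2.02 to 70939. The submitters' processing notes name GCRMA, whose version and settings are not given in the sources used here. GCRMA pulls weak signals to a common low value and normalizes arrays to each other, so a uniform change of all transcripts cannot be seen. From the deposited intensity the log2 was taken.

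Of 18952 probe sets, 183 controls were left out, and 13647 carried one gene symbol and 402 several. The 4 probe sets that list a member with another gene were left out of the members and of all counts of members. Those of them over the floor were fitted only among all probe sets over the floor. No symbol of a member changed in a RefSeq table of current names. Genes needed a log2 of 4 (intensity 16) on at least 2 arrays, which left 7289 probe sets, 6403 of them with a single symbol, and 5961 genes at 1 probe set each.

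One limma 3.58.1 model in R 4.3.3 (lmFit, contrasts.fit, eBayes) was fitted to all 22 arrays with a mean per group and 16 residual degrees of freedom. Controls were the mean of the GFP and Luc dsRNA group means, so the standard errors hold the spread within groups and not the difference between the controls. Tests were two-sided, with Benjamini-Hochberg adjustment over all 5961 genes and a threshold of 0.05. The procedure was tested on simulated data. Precision is limited by how many arrays a group has. The labels and files used here name no batch.

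Members, related gene lists and marker lists were chosen with earlier results of these data known. Genes named in the text were up to 6 largest rises and falls per comparison among members past the threshold, the 3 smallest F-test p-values per complex and per list, members whose probe sets differ in sign, and all paralogues. Alternatives covered the floor, centring, quantile normalization, either control alone, a replicate block, an intensity trend, the probe set rule, the arrays fitted and leaving out each array. No sequence or coordinate was used here.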

Additional observations from a re-analysis of the deposited data

Results flagged for a closer look

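Among the genes named, 22 members were examined for a single array apart from the other 3 of its group, by Dixon's test at the 95% level in the groups of 4 arrays. Of 110 groups 5 held such an array, and chance alone gives about 5%. In GFP replicate 2 the highest values of the group were found for ND-42 at 11.80 log2 (next array 11.77), ND-B17.2 at 11.76 (next 11.69) and SdhD at 10.68 (next 10.58). For COX7A, CycC replicate 2 was lowest at 13.34 (next 13.40). For UQCR-Q, CycC replicate 4 was highest at 10.39 (next 10.31). All gaps are under 0.11 log2.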

How the results depend on the processing

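Of 238 values of members past the threshold under alternatives other than leaving out an array, 201 kept direction and call, 34 missed the threshold and 3 turned sign. Those 3 are ATPsyndelta with GFP dsRNA arrays as the only controls, at -0.0914 for CycC, -0.0607 for Med12 and -0.0324 for Med13 dsRNA, where the low Luc dsRNA arrays leave the difference. With an array left out, 79 of 572 missed the threshold and 0 turned sign.

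The number of members past the threshold under Cdk8 dsRNA was 1; it was 2 after centring, after quantile normalization, against Luc dsRNA alone, with the replicate block and with an intensity trend, 0 with only the compared arrays, and 0 to 1 with an array left out. For CycC (3) it was 5 with the trend. For Med12 (8) it was 5 after centring (2 rose, 3 fell), 5 against GFP and 3 against Luc dsRNA alone, and 4 to 8 with an array left out. For Med13 (3) it was 7 after quantile normalization, 1 against GFP dsRNA alone and 6 with the trend. For the pairs (10) it was 18 after quantile normalization and 6 to 12 with an array left out. Beyond ATPsyndelta, the cause of these shifts was not tested.

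Of all genes, 1113 passed under Cdk8 dsRNA, and 538 to 1180 with an array left out. Between Med12 and Med13 dsRNA 52 passed, 33 with only the compared arrays and 25 to 69 with an array left out. Between Cdk8 and CycC dsRNA 6 passed, 3 with only the compared arrays and 3 to 8 with an array left out. Between GFP and Luc dsRNA 2 passed, 4 after centring or quantile normalization, 5 with the replicate block and 2 to 10 with an array left out.

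The labels do not say what equal replicate numbers share, so the main fit did not pair arrays by number. Of 50 same-numbered pairs 25 correlated above 0.1 in their deviations (median 0.0879, -0.238 to 0.436). Of the 150 other pairs 32 did (median -0.0381). Same-numbered arrays thus deviated together more often than others, and whether they share a batch was not tested. Every pair was above 0.1 between Med13 and GFP dsRNA alone, and 12 of 22 arrays correlated best with their own number. With the replicate block 2, 3, 8 and 3 members passed in the 4 knockdowns and 9 in the comparison of the pairs. ND-ACP was lost under Med13 dsRNA and between the pairs, Sdhaf3 was gained under Med13 and ATPsynbeta under Cdk8 dsRNA. The 22 genes under the floor cannot be judged, and differences well under 0.25 log2 may have been missed. Genes of the related lists were not refitted under the alternatives.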
